A study of Mus musculus with 3 samples.

Results

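The erythroblastic island is the unit of red cell formation in the fetal liver, a central macrophage ringed by maturing erythroblasts. The 10 genes described here were chosen by name, not by a measured value, as genes that set up, mark or serve the central macrophage: Spi1, Csf1r, Adgre1, Cd68, Vcam1, Mrc1, Cd5l, C1qa, Hmox1 and Dnase2a. They are 10 of the 21827 protein-coding genes of the annotation, and earlier results of these data were known when they were chosen. Their accessible chromatin was read from DNase-seq, in which DNase I cuts open DNA and the cut ends are sequenced. The tissue was whole liver of mouse embryos of 13.5 days, strain C57BL/6N,129, described as wild type with a single copy of the A20 YAC, a yeast artificial chromosome that every sample carries. There were 3 libraries in 1 group, labelled biological replicates 1, 2 and 3 under 1 donor entry, with no treatment and no other genotype. The design holds no contrast between conditions, so every value is a description without a test.

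The central macrophage holds erythroblasts through the adhesion molecule VCAM1, engulfs the nuclei they expel, digests the nuclear DNA with the lysosomal enzyme DNase II, and breaks down haem with haem oxygenase. Its identity depends on the transcription factor PU.1, the product of Spi1, and on the receptor for colony stimulating factor 1, the product of Csf1r. An accessible promoter usually accompanies transcription but does not measure it. In whole liver, fewer cells of a type and less accessible chromatin per cell cannot be told apart.

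The deposited peak lists held 34369 peaks in replicate 1, 122281 in replicate 2 and 60862 in replicate 3, and read depth is unknown. Replicate 1 thus had the fewest peaks. Among 15 erythroid markers, 13 promoters carried a peak in every library and 2 in 2 of them, while of 13 neutrophil markers none had one in more than 1 library. Of 12 hepatoblast markers only Foxa3 had one in all 3, 7 had one in 2, 3 had one in 1, and only Alb had none. By library, 1, 11 and 8 of the 12 had one in replicates 1, 2 and 3, against 54.0%, 67.3% and 56.4% of all genes. Endothelial markers counted 2 of 10 with one in all 3, and mesenchymal markers 4 of 10.

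Promoters of the 10 island genes ranged from among the most accessible of the genome to no peak at all. Promoter peaks were listed in every library for Dnase2a and Hmox1, in replicates 2 and 3 for Spi1, Cd68 and Vcam1, and in replicate 2 alone for Adgre1. Csf1r, Mrc1, Cd5l and C1qa had none. When each library kept only its strongest 34369 peaks, Vcam1 and Adgre1 lost every promoter peak, while Dnase2a, Hmox1, Spi1 and Cd68 kept theirs. A promoter is here the 1000 bp on either side of a start site of a coding transcript. The background over all protein-coding genes was 51.4% with a promoter peak in each of the 3 libraries and 32.1% without one in any, against 2 and 4 of these 10 genes. By library, 2 of the 10 had one in replicate 1, where 54.0% of all genes did, 6 in replicate 2, where 67.3% did, and 5 in replicate 3, where 56.4% did. Without replicate 1, 5 of the 10 had a promoter peak in both remaining libraries. To compare libraries, each promoter was ranked within its library: its percentile is the share of coding genes below it, in percent, and a gene lacking a peak is at 0. Every gene lacking a peak counts as below a gene with one, so even the weakest promoter peak stands far above 0. In replicate 2, for instance, the weak promoter peak of Adgre1, of signal 0.236, was at percentile 34.4, near that floor. Middle percentiles are therefore low ranks among the genes with a peak. The median of this percentile over the 10 genes was 20.8, against 48.0 over all genes, and it was 0 with equal numbers of peaks, 5.98 with promoters of 500 bp on either side, 12.1 without replicate 2 and 31.2 without replicate 1.

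**Figure D1:**
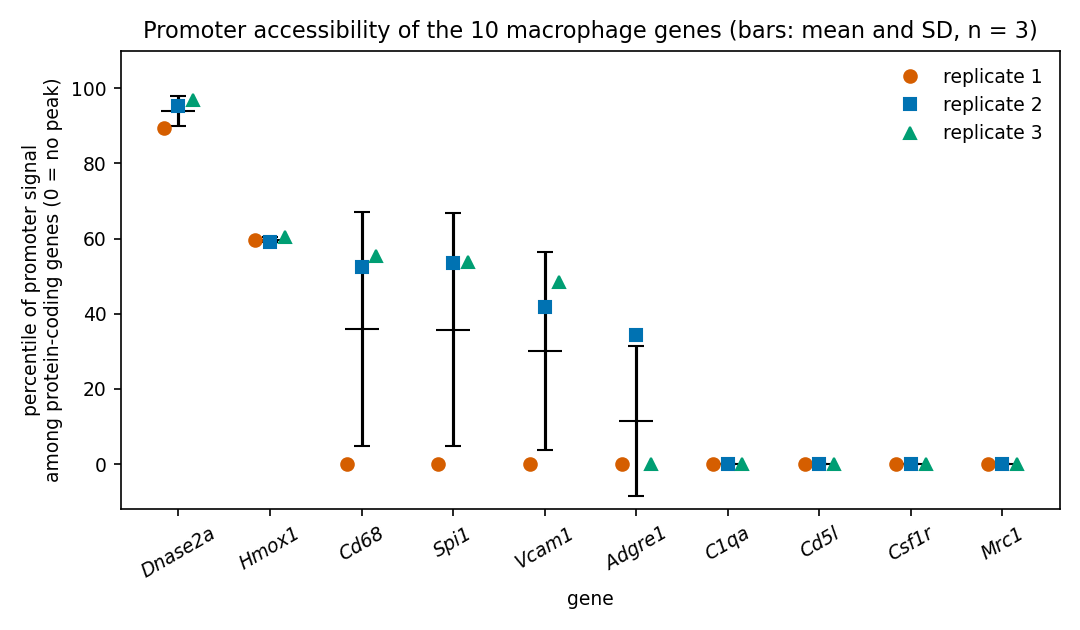
Percentile of promoter signal among protein-coding genes in each library, for the 10 genes ordered by their mean, with 0 where no peak was listed; points are single libraries and black bars the mean and SD of 3. Dnase2a lies between 89.4 and 97.0 and Hmox1 between 59.2 and 60.5, Cd68, Spi1 and Vcam1 are at 0 in replicate 1 alone, Adgre1 is above 0 in replicate 2 alone, and 4 genes are at 0 throughout.

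Most of the 10 promoters held fewer CpG sites than those of most genes. Genes were divided into 4 classes of nearly equal size by how many CpG sites their promoters held, and 9 of the 10 fell in the lower classes. Csf1r, Adgre1, Cd68 and Cd5l were in the lowest class, in which 4.12% of genes carried a peak in every library and 85.7% had none. Spi1, Vcam1, Mrc1, C1qa and Hmox1 were in the second class, in which 40.0% had one in all 3 and 33.7% had none. Dnase2a, with 74 CpG sites, was in the third class, in which 80.6% had one in all 3. None of the 4 genes of the lowest class carried a peak in every library, and of the 5 of the second class 1 did, Hmox1.

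Spi1 encodes PU.1, the master regulator of the myeloid lineage. The gene record lies at chr2:91082390-91115756 on the plus strand, in build mm10 as all positions here. Its promoter had no peak in replicate 1, a signal of 1.50 in replicate 2 and of 0.872 in replicate 3, at percentiles 53.5 and 53.9. The zero of replicate 1 sets the mean percentile of 35.8 ± 31.0 (SD, n = 3). In this rank among genes the remaining libraries differed by less than 1 percentile. Among all peaks of each library, however, the promoter peak stood at percentile 83.3 in replicate 2 and 58.3 in replicate 3. With only the strongest 34369 peaks of each library, as many as replicate 1 holds, the promoter still had no peak in replicate 1 and kept its peaks in replicates 2 and 3. Inside the gene, by contrast, 2 regions had a peak in every library. The region 5485 bp downstream of the start site, in intron 2 (chr2:91101481-91101680), had signals of 2.38, 3.40 and 2.17 in replicates 1, 2 and 3. Ranked among all peaks of each library, these stood at percentiles 75.4, 90.5 and 78.1. The region in exon 5, the last of 5, 19155 bp downstream (chr2:91115141-91115360), had signals of 3.13, 4.42 and 2.54, with a mean percentile of 85.0 ± 6.27 (SD, n = 3). All 3 libraries were therefore more accessible within the body of Spi1 than at its promoter.

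Upstream of Spi1 an enhancer known as the upstream regulatory element controls the gene in blood cells. A region 13025 bp upstream of the start site had no peak in replicate 1, a signal of 1.21 in replicate 2 and of 0.678 in replicate 3, at percentiles 80.4 and 48.3 of the peaks of those libraries. Whether it is that element was not tested. Its sequence is shown because it lies in the part of the locus where upstream control of Spi1 is known. It is mm10 chr2:91082921-91083220, plus strand, 5′ to 3′, and capitals mark matches to the searched motifs that lay whole within a footprint extended by 5 bp in at least 1 library.
Spi1 upstream: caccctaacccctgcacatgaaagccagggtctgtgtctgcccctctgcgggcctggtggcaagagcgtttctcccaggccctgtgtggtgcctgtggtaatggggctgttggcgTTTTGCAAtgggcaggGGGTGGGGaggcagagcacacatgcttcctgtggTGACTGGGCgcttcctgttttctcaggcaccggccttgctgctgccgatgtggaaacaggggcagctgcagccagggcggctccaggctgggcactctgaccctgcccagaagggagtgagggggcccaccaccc
A footprint is a stretch of about 10 bp inside open DNA that is protected from cutting. The marked matches are TTTTGCAA, a C/EBP motif, GGGTGGGG, a KLF motif, and TGACTGGGC, a match to the antioxidant response element, each in a footprint of replicate 2 alone. The PU.1 motif as searched here, GAGGAAGT, was not among the letters of this region on either strand.

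Csf1r (chr18:61100598-61132149, plus strand) encodes the receptor through which colony stimulating factor 1 keeps macrophages alive. Its promoters had no peak in any library, and the nearest position listed at a false discovery rate of at most 0.05 lay 2752, 1856 and 2676 bp from a start site in replicates 1, 2 and 3. In intron 2 of the 22-exon transcript, however, a region 2809 bp downstream of the start site had a peak in every library. It lies at chr18:61108521-61108800, and its signals were 0.806, 1.04 and 0.685, at percentiles 29.8, 78.2 and 48.8 of the peaks of each library. The intron is known to hold a conserved enhancer of Csf1r called FIRE, and whether the region is that enhancer was not tested. Among all distal regions found in the 3 libraries, 29.5% had a lower mean percentile, so the region was repeatable and weak. The other distal region of the window found in all 3 libraries lay 36991 bp upstream, inside a non-exonic part of the neighbour Pdgfrb, with signals of 2.18, 1.52 and 0.623.

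Vcam1 (chr3:116109949-116129688, minus strand) encodes the molecule that binds the integrin on erythroblasts. Its promoter lacked a peak in replicate 1 and gave weak signals of 0.472 and 0.485 in replicates 2 and 3, at percentiles 41.8 and 48.5, with a mean of 30.1 ± 26.3 (SD, n = 3). The peak also lies in the promoter of the antisense gene Gm43109, and peaks carry no strand. The only other region of its window had a peak in 1 library, and no region of this window was found in all 3.

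Adgre1 (chr17:57358691-57483527, plus strand) encodes F4/80, the antigen by which mouse macrophages are usually recognised. Its promoter had a peak of signal 0.236 in replicate 2, at percentile 34.4, and none in replicates 1 and 3, although in replicate 3 a stretch of 11 bp was listed at a false discovery rate of 0.0448. Between genes, 2 distal regions upstream of Adgre1 had peaks in all 3 libraries. The one 22820 bp upstream had signals of 2.89, 2.98 and 1.49, with a mean percentile of 80.6 ± 8.89 (SD, n = 3), and the one 23750 bp upstream had 2.25, 2.64 and 1.23, with 76.9 ± 10.7 (SD, n = 3). In each library both stood above the promoter of Adgre1. The farther of them is shown (mm10 chr17:57334841-57335040, plus strand) because it carries a match to the core of the motif of CTCF, a protein that partitions chromosomes into loops, within a footprint of all 3 libraries.
Adgre1 upstream: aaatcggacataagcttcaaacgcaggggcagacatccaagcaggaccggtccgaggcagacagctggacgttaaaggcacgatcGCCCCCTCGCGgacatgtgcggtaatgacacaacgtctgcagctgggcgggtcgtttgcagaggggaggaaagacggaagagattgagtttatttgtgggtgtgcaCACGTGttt
Capitals again mark matches within footprints, here GCCCCCTCGCG, the CTCF core, and CACGTG, an E-box, the latter in replicate 3 alone.

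Cd68 (chr11:69664213-69666153, minus strand) encodes a glycoprotein of the macrophage endosome. Its promoter lacked a peak in replicate 1, and in the others the signal was 1.33 (replicate 2) and 1.05 (replicate 3), at percentiles 52.5 and 55.4, with a mean of 36.0 ± 31.2 (SD, n = 3). The pattern over the libraries was that of Spi1, with replicate 1 apart from the others. The promoter is shown (mm10 chr11:69666161-69666422, minus strand) because its mean percentile is the highest among the promoters of the marker genes Adgre1, Cd68, Mrc1, Cd5l and C1qa.
Cd68 promoter: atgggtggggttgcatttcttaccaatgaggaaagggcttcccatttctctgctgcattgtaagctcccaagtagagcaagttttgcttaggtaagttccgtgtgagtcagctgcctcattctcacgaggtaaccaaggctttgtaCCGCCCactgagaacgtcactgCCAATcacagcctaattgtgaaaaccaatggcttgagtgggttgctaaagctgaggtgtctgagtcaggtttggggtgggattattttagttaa
The marked letters are CCGCCC, a GC box, in a footprint of replicates 2 and 3, and CCAAT in a footprint of replicate 2. A pair of TGAGTCA matches, the core of the AP-1 motif, were in the sequence and in no footprint. The window of Cd68 was crowded with neighbours, and 6 of its 8 regions found in all 3 libraries were promoters of other genes, among them Eif4a1, which encodes a translation factor.

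Mrc1 (chr2:14229392-14332057, plus strand) encodes the mannose receptor, Cd5l (chr3:87357881-87371073, plus strand) a protein secreted by tissue macrophages, and C1qa (chr4:136895917-136898803, minus strand) a chain of the complement component C1q. None had a promoter peak in any library. For Mrc1 the nearest listed position to a start site was 66087, 37110 and 37087 bp away in replicates 1, 2 and 3, for Cd5l it was 53399, 24048 and 50420 bp away, and for C1qa 25846, 8394 and 30199 bp. These 3 genes thus lacked not only peaks but any listed accessible position near their promoters. No peak in a list is not evidence of closed chromatin in the macrophages themselves. Mrc1 had 1 region found in all 3 libraries, in intron 15 of 30 exons, 66209 bp downstream of the start site, with signals of 1.55, 1.31 and 0.595. It is shown (mm10 chr2:14295501-14295700, plus strand) because it holds the CTCF core more than once.
Mrc1 intron: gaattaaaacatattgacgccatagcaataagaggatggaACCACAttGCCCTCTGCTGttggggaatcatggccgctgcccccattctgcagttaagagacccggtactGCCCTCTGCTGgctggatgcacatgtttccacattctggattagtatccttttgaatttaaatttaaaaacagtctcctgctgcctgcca
Capitals mark ACCACA, a RUNX motif in a footprint of replicates 1 and 2, and 2 copies of GCCCTCTGCTG, the CTCF core. The first copy lay in a footprint of replicates 1 and 2 and the second in a footprint of all 3 libraries. The region of the C1qa window found in all 3 libraries overlapped an exon of Epha8, 31838 bp upstream, with signals of 0.739, 1.93 and 2.49. Cd5l had no region found in all 3 libraries, and its nearest region of 2 libraries lay 53487 bp downstream with signals of 0.504 and 0.299 in replicates 1 and 2. C1qb and C1qc, the neighbours that encode the other chains of C1q, had no promoter peak either.

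Hmox1 (chr8:75093621-75100589, plus strand) encodes haem oxygenase 1, which opens the haem ring and is induced by haem itself through loss of the repressor BACH1 and gain of NRF2 at upstream enhancers. Its promoter had signals of 1.59, 2.93 and 1.84 in replicates 1, 2 and 3, at percentiles 59.6, 59.2 and 60.5, with a mean of 59.8 ± 0.641 (SD, n = 3). The libraries barely differed in this rank among genes. Among all peaks of each library, however, the promoter peak stood at percentiles 62.9, 89.5 and 75.6, with a mean of 76.0 ± 13.3 (SD, n = 3). A region 9630 bp upstream, between genes, was far stronger, with signals of 2.90, 13.4 and 12.7. In each library this was above the promoter signal, at percentiles 80.4, 97.7 and 97.0 of all peaks, and its mean percentile of 91.7 ± 9.80 (SD, n = 3) exceeded that of 97.9% of the 11025 distal regions found in all 3 libraries. Closer in, 3950 bp upstream, a region absent from the list of replicate 1 reached 2.00 in replicate 2 and 1.73 in replicate 3. Further regions lay 10101 bp upstream, in replicates 2 and 3 at 0.410 and 0.388, and 21850 bp upstream, in all 3 at 1.35, 2.26 and 1.35.

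The sequences of both upstream regions are shown because they hold the repeated element on which haem and stress induction of Hmox1 is known to act. They are mm10 chr8:75083881-75084100 and chr8:75089541-75089800, plus strand, with the same meaning of capitals.
Hmox1 far upstream: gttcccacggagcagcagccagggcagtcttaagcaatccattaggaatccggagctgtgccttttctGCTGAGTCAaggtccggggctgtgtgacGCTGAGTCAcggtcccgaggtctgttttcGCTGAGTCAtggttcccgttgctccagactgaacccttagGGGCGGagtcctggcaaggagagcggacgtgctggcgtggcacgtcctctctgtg
Hmox1 near upstream: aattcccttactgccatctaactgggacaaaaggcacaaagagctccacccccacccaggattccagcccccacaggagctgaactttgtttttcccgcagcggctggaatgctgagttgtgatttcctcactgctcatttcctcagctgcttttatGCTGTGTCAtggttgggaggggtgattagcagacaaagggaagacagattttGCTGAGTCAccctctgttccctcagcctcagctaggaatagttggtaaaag
The far region carries GCTGAGTCA 3 times in the same orientation, starting at bases 69, 97 and 126 from its 5′ end. The first copy lay in a footprint of replicates 2 and 3, and the other copies each lay in a footprint of all 3 libraries. The near region carries GCTGTGTCA and GCTGAGTCA, starting at bases 158 and 210, each in a footprint of replicates 2 and 3, the libraries that had a peak there. The element matches the antioxidant response element, TGACNNNGC on the opposite strand, and the copies with GAGTCA also match the AP-1 core TGANTCA, which overlaps it. The far region also has GGGCGG, a GC box, in a footprint of replicates 2 and 3.

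Dnase2a (chr8:84908560-84922915, plus strand) encodes DNase II, the enzyme that destroys the DNA of engulfed erythroblast nuclei. Its promoter had signals of 5.14, 20.4 and 19.0 in replicates 1, 2 and 3, at percentiles 89.4, 95.2 and 97.0, with a mean of 93.9 ± 3.98 (SD, n = 3). No other of the 10 genes came near it in any library, and it did not overlap the range of Hmox1. The 200 bp before its first start site are shown (mm10 chr8:84908360-84908559, plus strand) as the only strong promoter of the 10.
Dnase2a promoter: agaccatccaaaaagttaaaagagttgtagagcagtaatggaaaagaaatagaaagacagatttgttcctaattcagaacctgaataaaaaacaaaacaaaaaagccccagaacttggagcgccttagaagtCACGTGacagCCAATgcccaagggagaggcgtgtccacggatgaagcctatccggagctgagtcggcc
The marked letters are CACGTG, an E-box, and CCAAT, a few bases apart, each in a footprint of replicates 2 and 3. Transcription factors of lysosomal genes such as TFEB are known to bind E-boxes, and no factor was measured here.

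Dnase2a also lay in the densest window, with 14 regions found in all 3 libraries, more than in 98.5% of the windows of protein-coding genes. Of these, 8 were promoters of other genes, including Klf1, the erythroid transcription factor, Prdx2, a peroxidase abundant in red cells, Rnaseh2a and Gcdh. Klf1 is a near neighbour, and its promoter stood at a mean percentile of 67.9 ± 11.1 (SD, n = 3). The strongest distal region overlapped an exon of Klf1, 5359 bp upstream of Dnase2a, with signals of 5.09, 10 and 4.11 and a mean percentile of 92.1 ± 5.05 (SD, n = 3). Which gene such a region serves was not measured. Downstream of the start site, regions at 4611 bp, with signals of 2.32, 5.92 and 4.93, and at 5501 bp, with 1.70, 2.48 and 2.40, lie inside the records of both Dnase2a and Mast1.

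Across the 10 windows, each the gene record with 50 kb on either side, the peaks of the libraries merged into 137 regions. Of these, 39 were found in all 3 libraries, 24 in 2 and 74 in 1. Of those in 1 library, 66 came from replicate 2, 8 from replicate 3 and none from replicate 1, in the order of the peak numbers. The 39 comprised the promoters of Dnase2a and Hmox1, 20 promoters of other genes and 17 distal regions, which lie over 1000 bp from the start site of any gene. The distal count was 30 without replicate 1 and 11 with the shorter peak list of each library. The windows of Cd68 and Dnase2a held 22 of the 39, and the other 8 windows held 17. Regions found in all 3 libraries occurred at 2.89 per 100 kb in these windows against 0.953 over the genome, and the median window had 3, as it did over all genes. At least 1 distal region of all 3 libraries lay in 8 of the 10 windows, all but those of Vcam1 and Cd5l, and in 55.9% of the windows of all protein-coding genes.

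**Figure D2:**
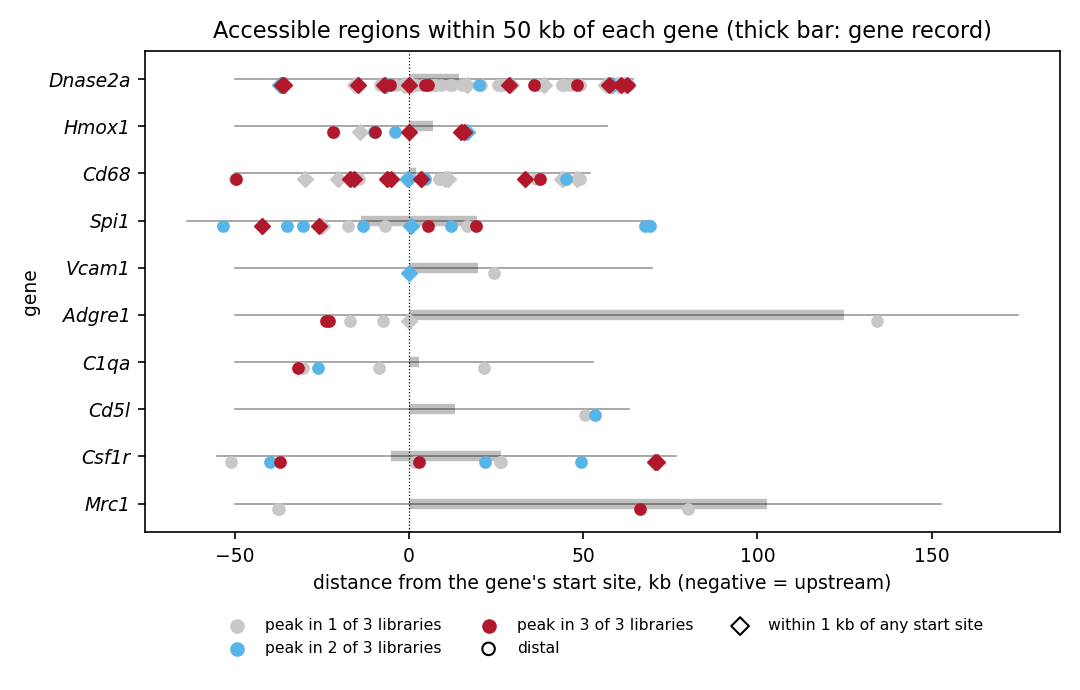
Accessible regions in the window of each gene, by distance in kb from its start site, with circles for distal regions and diamonds for regions within 1000 bp of the start site of any gene; the colour gives the number of libraries with a peak and the thick bar the gene record. The windows of Dnase2a and Cd68 hold 22 of the 39 regions found in all 3 libraries, while Vcam1 and Cd5l have none.

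**Figure D3:**
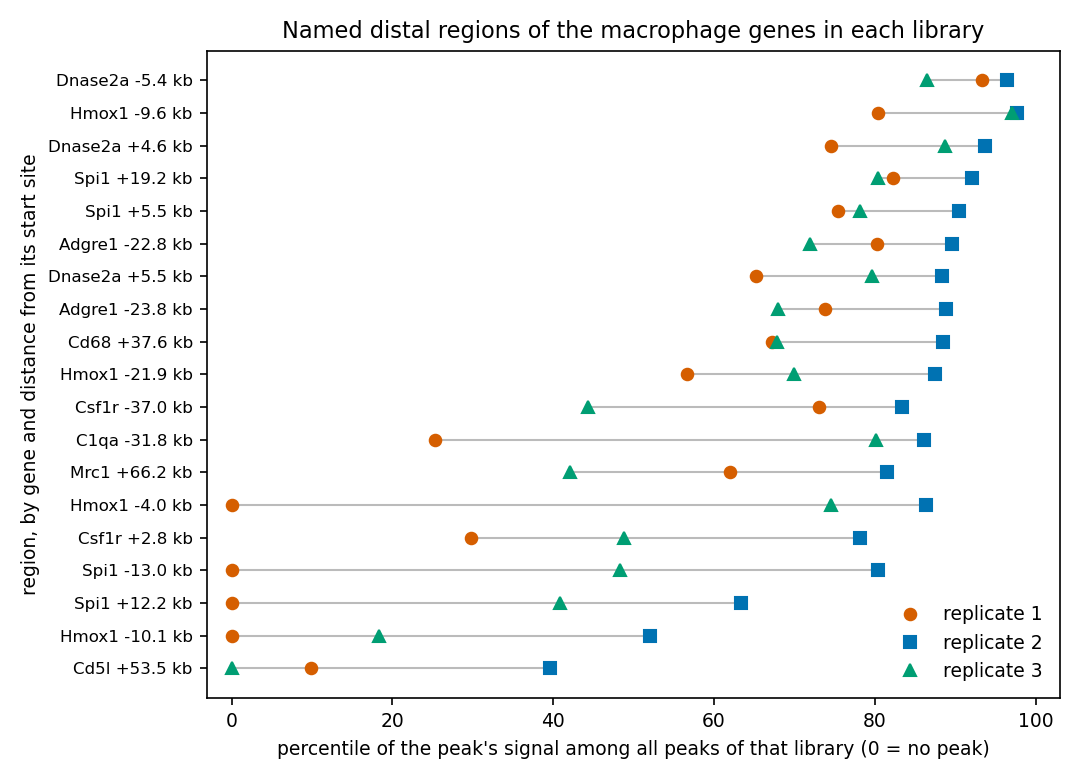
Percentile of the peak signal among all peaks of the same library for the named distal regions, with 1 point for each library and 0 where no peak was listed. The Hmox1 region 9.63 kb upstream lies at 80.4, 97.7 and 97.0, and the regions 13.0 kb upstream of Spi1 and 3.95 kb upstream of Hmox1 are at 0 in replicate 1.

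CTCF cores were common in the distal regions. The core was searched on both strands as AGNGGGC with a C 4 bases before it, within the central 200 bp, and was chosen after the sequences had been read. It was present in 8 of the 17 distal regions found in all 3 libraries, 47.1%, against 30.7% of the 11025 such regions of the genome and 13.2% of the shared regions at start sites. In each of the 8 a footprint overlapped the core in all 3 libraries. They lay 23750 bp upstream of Adgre1, 66209 bp downstream in Mrc1, 36991 bp upstream of Csf1r, 37571 bp downstream and 49527 bp upstream of Cd68, and 5359 bp upstream and 5501 and 48271 bp downstream of Dnase2a. None of the distal regions of Hmox1 or Spi1 found in 2 or more libraries matched the core as searched. Of the 17 regions 3 were masked as repeats over at least 50% of their length in the reference, namely those 49527 bp upstream of Cd68 and 5501 and 48271 bp downstream of Dnase2a, and all 3 were among the 8.

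Footprints in the 10 windows numbered 140, 512 and 237 in replicates 1, 2 and 3. Of these 92.1%, 70.3% and 88.2% lay in a peak, near the 89.5%, 77.1% and 86.9% of all footprints. A footprint of another library overlapped 83.6%, 32.8% and 72.2% of them, against 78.1%, 31.5% and 66.3% of all footprints. Most footprints of replicate 2 thus overlapped none of another library. Of 13 motifs searched in footprints, the share in these windows was higher than over all footprints in each library for 3, lower in each for 5, and neither for 5. The AP-1 core was in 2.14%, 0.977% and 1.69% of the footprints of the windows, against 0.222%, 0.436% and 0.793% of all. The antioxidant response element was in 2.14%, 1.95% and 2.95%, against 1.01%, 1.02% and 1.44%. The last was the NF-kB motif GGGANNTCC, in only 1, 3 and 1 footprints. Of these the Cd68 window held 1, 2 and 1, and the Hmox1 window 0 in each library.

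The shares of the AP-1 core and the antioxidant response element rested on Hmox1. Its window held 2, 4 and 4 of the 3, 5 and 4 footprints with the AP-1 core, and 2, 5 and 5 of the 3, 10 and 7 with the antioxidant response element. Without the Hmox1 window the AP-1 share was 0.820%, 0.212% and 0%, and the antioxidant response element share was 0.820%, 1.06% and 0.971%. The AP-1 share then exceeded that of all footprints in replicate 1 alone, and the antioxidant response element share in replicate 2 alone. The PU.1 motif GAGGAAGT was in no footprint of these windows in any library, against 0.0857%, 0.0948% and 0.124% of all footprints, shares that come to less than 1 footprint among the 140 to 512 of these windows. The motifs lower in every library were, beside it, IRF (GAAANNGAA), KLF (CCNCACCC), CCAAT and a partial MAF site (TGCTGAC). IRF and the MAF site were each in 0, 1 and 0 footprints of replicates 1, 2 and 3. KLF was in 1, 9 and 2 and CCAAT in 3, 10 and 8, so these lower shares rest on few footprints. The remaining 5 were the C/EBP motif TTGCNNAA, AGATAA for the GATA factors, TGTGGT for the RUNX factors, the E-box and the GC box.

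The wider machinery of the island macrophage was read in 94 further genes on 6 lists, of which 52 had a promoter peak in all 3 libraries, 8 in 2, 8 in 1 and 26 in none. The share with a peak in all 3, 55.3%, stood near the 51.4% of all genes. The lists differed widely. Of 14 regulators of the lineage 11 had a promoter peak in all 3 libraries, led by Tfeb, which drives lysosomal genes, at a mean percentile of 85.1 ± 8.71 (SD, n = 3). Spic, the factor of splenic iron-recycling macrophages, had none. Among 11 genes of growth factor signalling 5 had one in all 3, from Tgfbr1, a receptor of transforming growth factor beta, at 94.4 ± 3.31 to Ccr2, a chemokine receptor, at 0.

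Among 21 genes of adhesion and engulfment, 8 promoters carried a peak in every library and 8 in no library. Itga4, the integrin chain on erythroblasts that binds VCAM1, stood highest at 92.0 ± 0.663 (SD, n = 3), far above Vcam1 itself in each library. Cd163, the receptor for haemoglobin bound to haptoglobin, had no peak. Of 18 genes of complement and immune receptors 2 had a peak in all 3 and 11 in none, with Coro1a, an actin-binding protein, highest at 56.4 ± 2.86 (SD, n = 3) and Aif1 at 0. In replicate 1, 2 of the 18 had a promoter peak, against 54.0% of all genes. For markers of other cell types the counts in replicate 1 were 13 of 15 erythroid and 4 of 10 mesenchymal genes. The remaining counts there were 3 of 10 endothelial, 1 of 12 hepatoblast and 0 of 13 neutrophil genes.

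Most genes of nucleus digestion and haem recycling had a promoter peak in all 3 libraries, against 51.4% of all genes. In the 2 classes of promoters richest in CpG sites, 80.6% and 82.0% of all genes had one. The CpG classes of the listed genes were not examined. Of 16 genes of the lysosome and nucleus digestion 14 had a promoter peak in all 3 libraries, from Ctsd, a lysosomal protease, at 98.0 ± 0.813 (SD, n = 3) to Ctss, a protease of immune cells, at 0. Of 14 genes of haem and iron recycling 12 did, with Nfe2l2, which encodes NRF2, at 98.6 ± 0.591 (SD, n = 3) and Hamp, the iron hormone hepcidin, at 0. Many of the genes on these 2 lists are used by most cell types, erythroblasts included, and the cells that carried the open promoters were not resolved. Among the 52 genes of the 6 lists with a peak in all 3 libraries, the one whose promoter percentiles were most like those of Dnase2a was Npc2, a lysosomal cholesterol carrier, with a largest difference of 3.07 percentiles over the 3 libraries. For Hmox1 it was Itgav, an integrin chain, with 2.36.

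**Figure D4:**
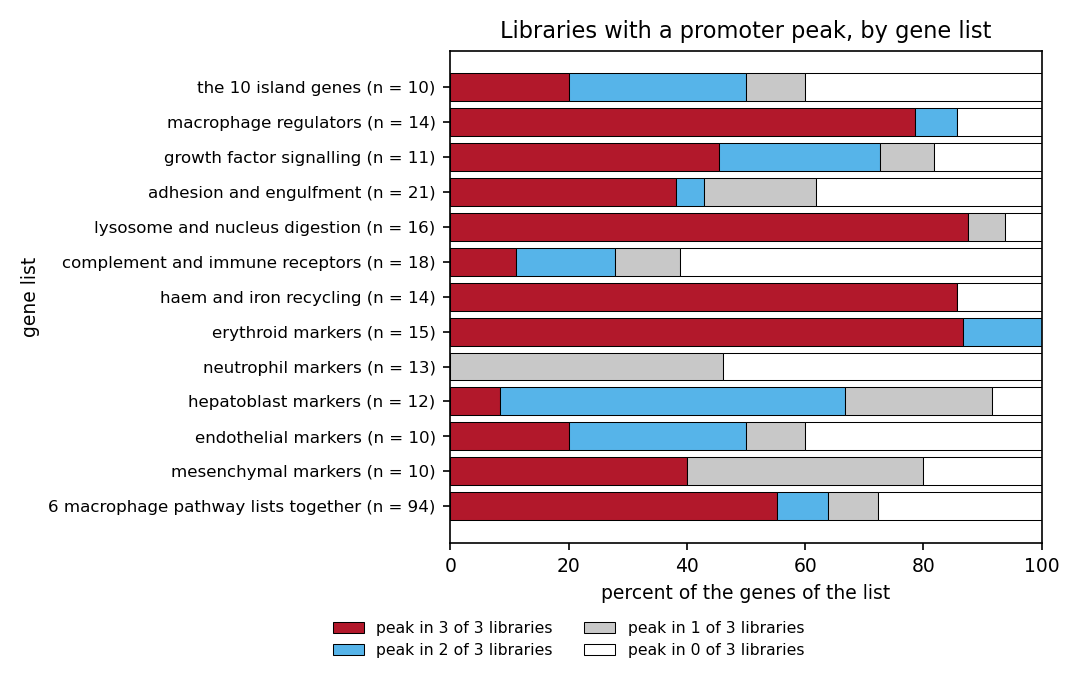
Percentage of the genes of each list with a promoter peak in 3, 2, 1 or 0 of the 3 libraries, for the 10 island genes, the 6 lists of island functions singly and together, and 5 lists of cell type markers. The lysosome and haem lists have 14 of 16 and 12 of 14 genes with a peak in all 3 libraries, and the complement and immune receptor list 2 of 18. Over all protein-coding genes the share with a peak in all 3 was 51.4%.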

How the data were processed

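DNase-seq peaks, footprints and false discovery rates of 3 libraries of embryonic mouse liver were used as deposited, in mm10 per the labels. Peak signal was scaled per library by the authors in a way not given in the sources used here, as are the peak caller and its version. Signals are therefore ranked within a library. The deposited adjusted p-value (q-value, the false discovery rate) is listed up to 0.05. The deposited footprint score is the constant 0.01 and was not used. Of the pair of peak lists per library, the longer was used. Genes and start sites were those of the basic GENCODE annotation, release M21. Of the genes on the lists 164 were used, 1 by a newer symbol. Peaks were joined where they overlapped, with Python 3.11.15, numpy 2.4.6 and pandas 2.3.3. Regions were placed in windows by midpoint. A promoter had a peak from 1 bp of overlap, and its signal is that of the strongest such peak. The scripts were tested on simulated data. Sequences came from the RefSeq copy of GRCm38, whose letters equalled those of the RefSeq promoter table at the 4 members listed there.

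The genes, lists and motifs were chosen with earlier results of these data known. All 10 genes are described. The distal region named by rule is, for each gene, the one found in all 3 libraries, else in 2, with the highest mean percentile. All other distal regions named, the CTCF core and the share masked as repeats were chosen after the data were seen. Of each list the highest and lowest gene are named, the first in the alphabet at a tie. Alternatives were the shorter peak list, equal numbers of peaks, other windows, overlaps and start sites, and leaving out each library.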

Additional observations from a re-analysis of the deposited data

How the results depend on the processing

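Dnase2a and Hmox1 kept a promoter peak in all libraries used, 2 of the 10 genes, with the shorter peak lists, with equal numbers of the strongest peaks, with promoters of 500 or 2500 bp on either side, with the most upstream start site alone, at 50 bp of overlap and, chosen after seeing the data, with the start sites of the comprehensive annotation. Leaving out 1 library gave 2 to 5 genes, the 5 without replicate 1. The median promoter percentile of 20.8 became 0 when each library kept as many of its strongest peaks as the smallest list holds, which ended the promoter calls of Vcam1 and Adgre1. It was 5.98 with promoters of 500 bp on either side, and 12.1 to 31.2 with 1 library left out, the lowest without replicate 2 and the highest without replicate 1. The 39 regions of all libraries were 21 with windows of 20 kb and 85 with 100 kb. The 17 distal regions were 8 and 36 with these windows, 11 with the shorter peak lists, and 17 to 30 with 1 library left out, the 30 without replicate 1. The mean number of footprints per library, 296, was 177 with windows of 20 kb and 188 to 374 with 1 library left out, the 188 without replicate 2. The 3 motifs with a higher share in every library were 3 to 5 with 1 library left out, the 5 without replicate 1. Counting the medians of 5.98, 12.1 and 31.2, 34 values moved by less than the spread between libraries, or for counts by no more than 1.5 times. Another 11 values moved by more. Wider windows and fewer libraries change the counts by construction, and for the other changes the cause was not tested.

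No paired analysis was possible because there is 1 group. With 3 libraries of unknown depth, a missing peak in replicate 1, which had the fewest peaks, cannot be told apart from a lower depth. Whether the 3 samples came from separate litters is not given in the sources used here.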
